A study of Mus musculus with 6 samples.

Results

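The genes described here encode the subunits of RNA polymerases I, II and III and of Mediator, measured in mouse 1-cell embryos. They are the protein-coding genes of the deposited table whose symbol in the GENCODE M21 annotation begins with Polr1, Polr2 or Polr3, or is Med followed by a number and an optional letter. The rule gave 58 of the 36065 genes of the table, of which 21785 are protein-coding: 5 genes named for polymerase I, 13 for polymerase II, 10 for polymerase III and 30 for Mediator. It used names and no measured value. Because it goes by name, it leaves out the Mediator kinases Cdk8 and Cdk19 with their cyclin Ccnc, the polymerase I subunits Znrd1, Cd3eap and Twistnb, and the polymerase III subunit Crcp, whose values are given beside the others.

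Polymerase I makes the large ribosomal RNA precursor, polymerase II makes messenger RNA, and polymerase III makes transfer RNA, 5S ribosomal RNA and other small RNAs. Each has a pair of large subunits that form the active centre, a set of small subunits, some of them common to all the polymerases, and subunits of its own. Mediator connects transcription factors at enhancers with polymerase II at promoters through its head, middle, tail and backbone, and a kinase module binds it reversibly. The mouse zygote begins life with the polymerase and Mediator proteins and transcripts that the oocyte stored, and starts its own transcription at low level in both pronuclei, which is called minor zygotic genome activation.

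The embryos were wild-type (WT), were kept in culture, and received DMSO, the solvent control, CBR-5884, an inhibitor of serine metabolism (group CBR), or CBR-5884 with S-adenosylmethionine, the universal methyl donor (group CBR+SAM). Each group had 2 biological replicates, which makes 6 libraries. No group received S-adenosylmethionine alone, so its addition was seen only on top of the inhibitor, and both inhibitor groups are compared with the same DMSO libraries. How many embryos went into a library, the doses and the hours of culture are not given in the sources used here.

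The libraries carried marker transcripts of oocytes and zygotes, a joint list that does not tell the 2 apart. All 10 marker genes of oocytes and zygotes were detected, and their summed level, on the deposited abundance scale that divides by transcript length, ran from 22406 to 27946. Most of that sum was Dppa3, at 13565 to 17885. Of 14 cumulus cell markers 3 reached a level of 1 in 2 or more libraries, and Inha was at 0 in all 6. The cumulus sum lay between 510 and 618 in 5 libraries and at 239 in CBR+SAM replicate 2, and nearly all of it was Serpine2. Sperm markers summed to 40.8 to 48.7, oviduct markers to 2.89 to 4.76 and blood markers to 0.85 to 2.31. Nearly all of the sperm sum was Odf2 (24.4 to 32.5) and Prm2 (9.86 to 14.7), and Tnp1 and Smcp were at 0 in all 6 libraries. Depth had to be estimated. From the steps between low values it came to 20.6 to 26.5 M reads per library with median transcript lengths and 46.0 to 59.2 M with the longest. With the longest lengths, 51 of the 58 genes had at least 100 approximate reads in every library. All read counts of single genes given below use the longest lengths too, and shorter lengths would make them lower. CBR+SAM replicate 2 stood apart from the other 5 libraries, as given below for the subunit genes.

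Transcripts of the polymerase and Mediator subunits spanned more than 3 orders of magnitude in these zygotes. The means over the 6 libraries ran from 1377 for Med27, a Mediator tail subunit, to 0.424 for Polr3e, a subunit of the polymerase III heterodimer that helps in initiation and termination, a 3250-fold range. A mean of at least 100 was reached by 16 genes, 22 lay between 10 and 100, 16 between 1 and 10, and 4 under 1. Their median was 24.3, and 38 of the 58 lay above 10.4, the median of the 10997 protein-coding genes that were tested. For 32 of the 58 genes the highest of the 6 libraries was less than 1.5 times the lowest, and for 6 it was more than 2 times. The levels are relative abundances from 1-cell embryos and do not show the amount of RNA per embryo. If a library pooled several embryos, differences among them cannot be seen.

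**Figure D1:**
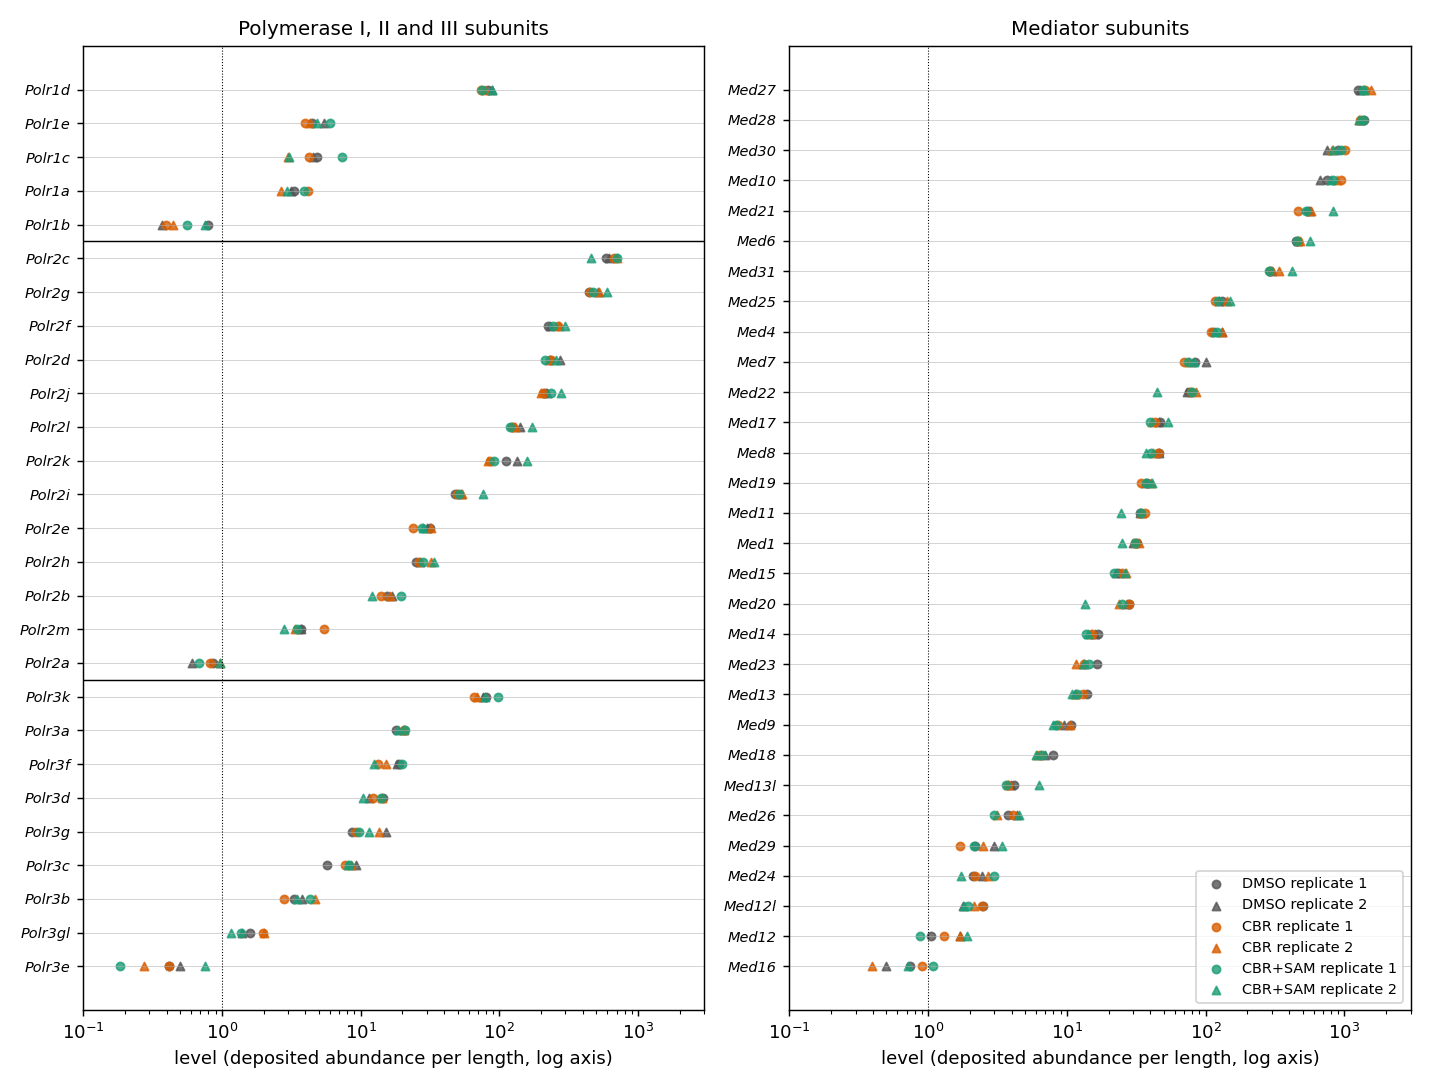
Level of each subunit gene in each of the 6 libraries, on a log axis of deposited abundance per length, with polymerase I, II and III genes on the left in blocks and Mediator genes on the right, ordered by mean. Colours mark the groups and shapes the replicates. The 6 points of a gene lie close together beside the range from Polr3e (0.424) to Med27 (1377), and the dotted line marks a level of 1.

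The 6 large catalytic subunits all had means below 24.3, the median of the 58 genes. Those of Polr3a (19.8) and Polr2b (15.7) still lay above 10.4, the median of the protein-coding genes tested. Polr2a, which encodes the largest polymerase II subunit with the repeated carboxy-terminal tail that kinases phosphorylate (ENSMUSG00000005198, chr11:69733997-69758637), stood at 0.86 and 0.60 under DMSO, 0.82 and 0.97 under CBR, and 0.69 and 0.98 under CBR+SAM. The 3 groups overlapped, and about 81.4 to 161 reads per library lay behind these values. Its partner Polr2b, the second largest subunit, stood at 15.6 and 16.8, 13.9 and 16.2, and 19.7 and 12.2 in the same order, 12.5 to 28.6 times as high as Polr2a within a library.

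In polymerase I the relation was the other way round. The largest subunit Polr1a stood at 3.34 and 3.14 under DMSO, 4.15 and 2.68 under CBR, and 3.94 and 2.96 under CBR+SAM, and the second largest, Polr1b, at 0.80 and 0.37, 0.40 and 0.44, and 0.56 and 0.76. Polr1a was 3.89 to 10.5 times as high as Polr1b. In polymerase III, Polr3a (the largest subunit) varied little, with 17.9 and 20.6, 20.7 and 20.2, and 20.97 and 18.6, while Polr3b (the second largest) stood at 3.31 and 3.77, 2.79 and 4.66, and 4.34 and 3.45. Polr3a was 4.35 to 7.41 times as high as Polr3b. In none of the 3 enzymes, then, were the transcripts of the pair at equal level, in any library. The levels are of steady transcripts and say nothing of the stored proteins.

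The subunits common to the 3 polymerases form a group from 28.8 to 255 in mean. Polr2f was the highest, with 226 and 231 under DMSO, 264 and 270 under CBR, and 243 and 295 under CBR+SAM. Polr2l, a small zinc-binding subunit, stood at 124 and 141, 125 and 129, and 119 and 171. Polr2k, another small zinc-binding subunit, stood at 111 and 134, 85.7 and 82.8, and 92.0 and 158. CBR+SAM replicate 2 held the highest value of all 3. Polr2e, which sits in the jaw of the enzyme, stood at 31.9 and 30.1, 23.8 and 32.4, and 27.5 and 28.2, and Polr2h at 24.9 and 26.9, 26.3 and 32.1, and 28.4 and 34.0. Those last 2 had close means, 29.0 and 28.8, but not in each library. Polr2e was the higher in DMSO replicate 1 (31.9 against 24.9) and the lower in CBR+SAM replicate 2 (28.2 against 34.0).

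The values of Polr2k and Polr2l share reads with pseudogenes, and their sequences show why they are uncertain. The table lists Gm14567, a processed pseudogene on the X chromosome (chrX:38969817-38969990, plus strand), whose whole 174-base model is identical to part of the Polr2k coding sequence (spliced transcript at chr15:36174033-36177010, plus strand, mm10, read from GENCODE M21). Below, the stretch they share is printed once for Polr2k, with capitals marking its first ATG.
Polr2k, shared with Gm14567: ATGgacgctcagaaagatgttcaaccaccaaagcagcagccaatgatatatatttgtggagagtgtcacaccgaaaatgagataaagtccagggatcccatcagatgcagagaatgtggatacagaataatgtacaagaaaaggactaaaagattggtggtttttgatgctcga
For Polr2l (chr7:141471860-141475132, minus strand) the processed pseudogene Gm10774 (chr2:126709354-126709557, minus strand) repeats the whole 204-base coding sequence with 1 difference, G82A, counted from 1 at the first base of the coding sequence, the base of Polr2l first. Capitals mark it in both.
Polr2l: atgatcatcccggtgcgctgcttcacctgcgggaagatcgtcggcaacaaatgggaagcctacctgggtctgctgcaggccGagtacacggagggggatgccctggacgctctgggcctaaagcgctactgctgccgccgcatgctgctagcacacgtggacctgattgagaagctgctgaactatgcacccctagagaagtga
Gm10774: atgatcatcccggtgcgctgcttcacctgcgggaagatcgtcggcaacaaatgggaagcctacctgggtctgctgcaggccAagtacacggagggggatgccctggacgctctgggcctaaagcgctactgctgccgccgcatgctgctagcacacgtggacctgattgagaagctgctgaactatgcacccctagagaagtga

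A read that lies inside the shared stretch of Polr2k carries nothing that could place it in one or the other record. Gm14567 was listed at 109 and 89.9 under DMSO, 81.5 and 60.9 under CBR, and 94.4 and 109 under CBR+SAM, about as high as Polr2k itself, although on a scale divided by a model of only 174 bases. The sum of both was 221 and 224, 167 and 144, and 186 and 266. Both CBR libraries lay below the other 4 in the sum, as they did for each record. Gm10774 was listed at 0 in CBR replicate 1 and at 17.2 to 38.5 in the other 5 libraries, beside 119 to 171 for Polr2l. The same holds for Polr1d, a subunit shared by polymerases I and III, whose 381-base coding sequence is repeated without a difference in Gm12751 (chr4:34354043-34354423). Polr1d stood at 82.3 and 89.0, 73.3 and 78.4, and 75.4 and 88.0, and with Gm12751 added at 120 and 128, 106 and 104, and 110 and 117. This sum has the same limit. In all, 9 of the 58 genes share at least 150 bases at 97% identity or more with another gene, and for 5 of them the copy reached at least 10% of the gene's mean in some library.

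**Figure D2:**
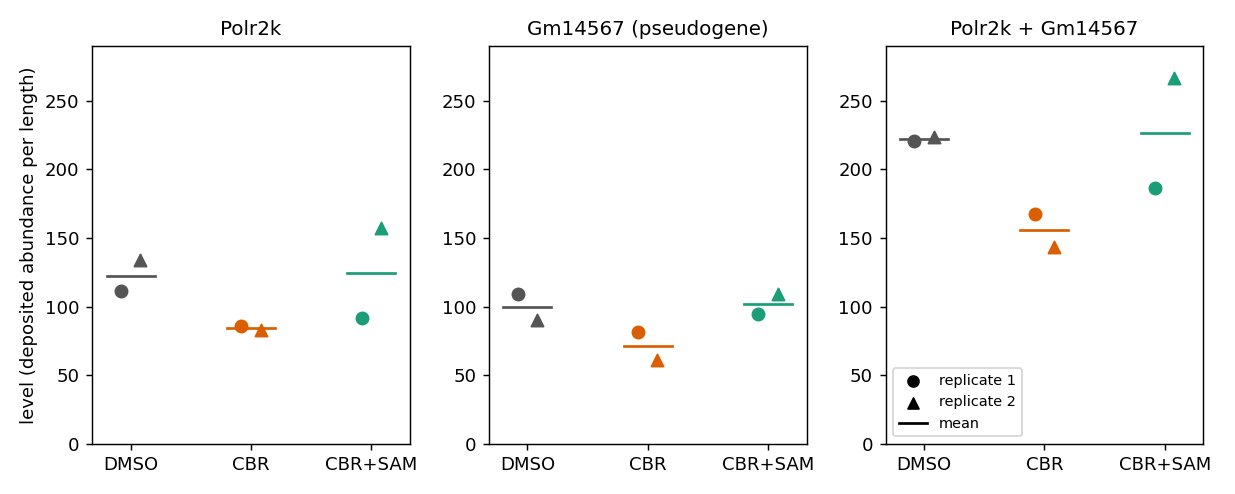
Polr2k, the processed pseudogene Gm14567 and their sum in the 3 groups, as deposited abundance per length on a linear axis from 0. Points are single libraries and lines are means of 2. The sum adds values divided by unlike lengths and is not a pooled level. The CBR libraries (85.7 and 82.8 for Polr2k, 167 and 144 for the sum) lie lowest in every panel, and the CBR+SAM pair (92.0 and 158 for Polr2k) is the widest for Polr2k and for the sum.

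Polr1c, the partner of Polr1d in the assembly platform of polymerases I and III, was far lower than it. It stood at 4.87 and 4.53 under DMSO, 4.28 and 3.02 under CBR, and 7.32 and 3.06 under CBR+SAM. The CBR+SAM pair spans every other library but CBR replicate 2. Polr1e, which belongs to a heterodimer of polymerase I that serves initiation, stood at 4.47 and 5.48, 3.98 and 4.34, and 6.05 and 4.83. Among the polymerase I subunits outside the naming rule, Twistnb lay at 32.3 to 51.5 and Znrd1 at 26.6 to 44.5, and Cd3eap, the partner of Polr1e, at 0.28 to 0.76.

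The subunits that belong to polymerase II alone included the most abundant of the polymerase genes. Polr2c, part of the dimer on which the enzyme assembles, was highest with 590 and 614 under DMSO, 667 and 706 under CBR, and 710 and 457 under CBR+SAM. Its partner Polr2j stood at 215 and 222, 206 and 201, and 238 and 279. Polr2g and Polr2d form the stalk near the RNA exit. Polr2g stood at 440 and 513, 447 and 526, and 472 and 601, and Polr2d at 232 and 274, 235 and 228, and 213 and 255. Polr2d was 0.42 to 0.53 times Polr2g in every library, the narrowest of the ratios between paired genes given here. Polr2i, a small subunit that supports transcript cleavage and fidelity, lay at 48.0 to 75.9, with CBR+SAM replicate 2 at the top. Polr2m, which binds polymerase II in competition with an initiation factor, was low at 2.81 to 5.46.

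The polymerase III subunits ranked from Polr3k, which takes part in RNA cleavage and termination, down to Polr3e. Polr3k stood at 80.7 and 76.9 under DMSO, 65.3 and 69.0 under CBR, and 97.9 and 79.0 under CBR+SAM, and the 3 pairs overlapped between DMSO and CBR+SAM only. Of the heterotrimer that opens promoters, Polr3f lay at 12.6 to 19.9, Polr3c at 5.75 to 9.20 and Polr3g at 8.64 to 15.3. Polr3g has a paralog, Polr3gl, that takes its place in most differentiated cells. Polr3gl lay at 1.16 to 2.02, from only about 37.6 to 67.3 reads per library, and Polr3g was 4.68 to 10.9 times as high in each library. Polr3d, the partner of Polr3e, lay at 10.4 to 14.4, and Crcp, a stalk subunit, at 9.41 to 13.5. Polr3e stood at 0.42 and 0.50, 0.42 and 0.28, and 0.18 and 0.76, from about 18.1 to 75.4 reads per library.

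Mediator held the 2 most abundant genes of the set. Med27 stood at 1259 and 1306 under DMSO, 1400 and 1553 under CBR, and 1356 and 1389 under CBR+SAM. Med28 stood at 1381 and 1322, 1289 and 1283, and 1372 and 1284, and its highest library was 1.08 times its lowest, the narrowest of the 58. Med30 followed with 904 and 749, 1019 and 814, and 942 and 828. All 3 are assigned here to the tail. The rest of the tail was much lower, with Med25 at 117 to 150, Med15 at 21.9 to 26.6, Med23 at 11.7 to 16.6, Med29 at 1.71 to 3.38, Med24 at 1.72 to 3.00 and Med16 at 0.40 to 1.08. Members of 1 module thus differed by up to 3 orders of magnitude in transcript level.

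The middle and head modules, which touch polymerase II, held both abundant and scarce transcripts. In the middle module Med10 stood at 751 and 667 under DMSO, 946 and 880 under CBR, and 827 and 805 under CBR+SAM, and the 3 pairs did not overlap. Med21 lay between 464 and 575 in 5 libraries and at 827 in CBR+SAM replicate 2; it shares 435 bases at 97.5% identity with the ribosomal protein gene Rps26, itself listed at 9.77 to 14.6. Med31 lay at 289 to 423, Med4 at 109 to 131, Med7 at 69.4 to 101, Med19 at 34.0 to 41.0, Med9 at 7.94 to 10.7 and Med26, which brings in elongation factors, at 2.97 to 4.49. Med1, the subunit that nuclear receptors bind, stood at 31.9 and 30.1, 31.1 and 33.0, and 31.1 and 25.0. In the head module Med6 was highest at 448 to 563, and Med18 lowest at 5.94 to 7.91. Med17, the scaffold of the head, stood at 47.1 and 46.1, 43.0 and 40.9, and 39.8 and 53.6. Med22 lay at 44.6 to 84.9, Med8 at 37.0 to 46.2, Med11 at 24.4 to 36.7 and Med20 at 13.6 to 28.2. Med14, the backbone that joins the modules, stood at 16.7 and 16.1 under DMSO, 15.2 and 14.8 under CBR, and 13.8 and 14.2 under CBR+SAM.

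In the kinase module the paralogs were present side by side. Med12, which activates the kinase, stood at 1.04 and 1.69 under DMSO, 1.30 and 1.70 under CBR, and 0.87 and 1.92 under CBR+SAM. Its paralog Med12l stood at 2.48 and 1.79, 2.44 and 2.13, and 1.94 and 1.81, and the ratio of Med12 to Med12l ran from 0.42 to 1.06. Med13, which links the module to Mediator, stood at 13.9 and 11.5, 13.0 and 11.6, and 11.9 and 10.9, while Med13l stood at 4.14 and 3.98, 3.75 and 3.77, and 3.62 and 6.28. Med13 was 1.74 to 3.46 times as high as Med13l, with the lowest ratio in CBR+SAM replicate 2. Of the kinases themselves, Cdk8 lay at 41.2 to 51.2 and Cdk19 at 0.59 to 1.28, a ratio of 40.1 to 84.0, and the cyclin Ccnc lay at 45.1 to 60.7. The transcripts of Cdk8 and Ccnc were therefore well above those of Med12, Med12l and Med13 in every library.

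Long transcripts had lower levels than short ones among these genes. Over the 58 genes, the mean level and the length of the longest protein-coding transcript had a Spearman rho of -0.52, with -0.47 over the 30 Mediator genes and -0.61 over the 28 polymerase genes. Over the 10997 protein-coding genes tested rho was -0.092. The 58 include Polr2a, Polr1b, Polr3e and Med16, whose means lay under 1 and which were not among the genes tested. The 15 subunit genes over 4000 bases had a median level of 12.1 and the 19 under 1500 bases one of 120, against 8.98 and 14.3 for all protein-coding genes tested of such lengths. Genes are not independent replicates, the points share the same libraries, and the SMART-Seq v4 kit primes cDNA at the poly(A) tail. The part of library preparation, or of dividing by length, in these levels was not tested.

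**Figure D3:**
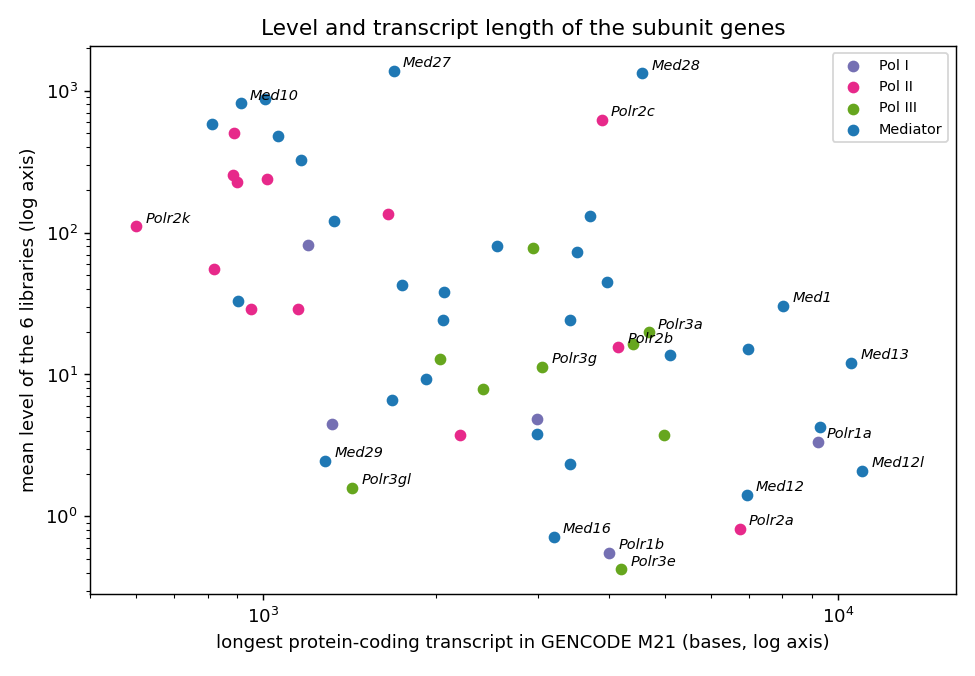
Mean level over the 6 libraries against the length of the longest protein-coding transcript for the subunit genes, on log axes, coloured by complex. Genes over 4000 bases have a median level of 12.1 and those under 1500 bases one of 120, and Med28 and Polr2c lie above the others of their length.

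The promoters of the subunit genes, read from the RefSeq table for GRCm38.p6 as windows of 250 bases before and 50 after the start, could be matched for 48 of the 58 genes, in 54 windows. A ratio of observed to expected CpG above 0.6 was found in 45 of them (83.3%), against 66.2% of 11033 windows of protein-coding genes tested and 35.8% of all 32851 windows. The letters CCGGAAG, the core bound by ETS factors, stood on one strand or the other in 29.6%, against 17.5% and 8.86%. GGGCGG was in 61.1%, against 58.6% and 35.7%, TATAAA in 9.26%, against 8.03% and 13.6%, and CACGTG in 13.0%, against 9.61% and 7.15%. CCAAT was in 33.3%, against 39.2% and 37.4%. The NRF1 palindrome was in none, against 2.02% and 0.97%, and the CGCG palindrome in none, against 1.11% and 0.47%. Some genes contribute several windows, windows of neighbouring starts overlap, and a match is a run of letters and not a binding site. The windows of the subunit genes include those of Polr2a, Polr1b, Polr3e and Med16, which were not among the genes tested.

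The comparison of CBR with DMSO asks what blocking serine metabolism does to these transcripts, and it gave no call. Of the 58 genes, 54 reached a value of 1 in 2 or more libraries and were tested. Limma with Benjamini-Hochberg adjustment over the 12249 genes tested called 0 of the 54 at an adjusted p under 0.05, as it called 0% of all genes, and the smallest adjusted p among the 54 was 0.9999. At an unadjusted p under 0.05 there was 1 of the 54, against 2.12% of all genes. It was higher with CBR (0.816% of all genes) and 0 of the 54 were lower (1.31% of all genes). The fitted log2 changes, on the scale of log2(value + 1), had a median of -0.033 beside -0.0074 over all genes tested. They were above 0 for 26 of the 54 genes, against 48.3% of all genes, and within 0.5 of 0 for 53, against 95.8%. For 52 of the 54 genes the 95% interval lay within a doubling or halving, that is within 1 on the log2 scale, against 87.2% of all genes, so larger differences than that lie outside the intervals of most members. That scale understates changes of low genes. A p-value here rests on how far these few libraries lie apart, which may be in part technical. The fit takes 1 spread per gene from all 6 libraries, so the CBR+SAM pair enters these intervals and p-values too. With the 4 libraries of the comparison alone, limma gave 5 of the 54 genes an unadjusted p under 0.05, beside 4.43% of all genes. It called 0 of the 54 there.

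Med10 was the gene with the smallest unadjusted p. Both CBR libraries (946 and 880) lay above both DMSO libraries (751 and 667), with means ± SD of 913 ± 46.7 and 709 ± 59.4 (n = 2 each). The log2 change was 0.37 (SE 0.14, 95% interval 0.041 to 0.69), with an adjusted p of 0.9999 by limma. Next among the higher values came Med27 with a log2 change of 0.20 (SE 0.13), Polr2f with 0.22 (SE 0.15), Polr3gl with 0.27 (SE 0.20) and Med15 with 0.17 (SE 0.16). In each of these 4 genes, too, the CBR pair lay above the DMSO pair.

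On the lower side, Polr2k had the largest difference, with a log2 change of -0.53 (SE 0.25, 95% interval -1.12 to 0.065), CBR at 84.2 ± 2.06 and DMSO at 122 ± 15.8 (n = 2 each). That SE includes the spread of its CBR+SAM pair, 92.0 and 158. Med7, a middle module subunit, stood at 83.5 and 101 under DMSO, 69.4 and 75.4 under CBR, and 74.2 and 82.1 under CBR+SAM. Its log2 change from DMSO to CBR was -0.34 (SE 0.16, 95% interval -0.71 to 0.035). Polr3f followed with -0.36 (SE 0.23), from 18.9 and 18.4 to 13.3 and 15.4. Polr3k had -0.23 (SE 0.16) and Med23 -0.23 (SE 0.18), and the pairs of Med23 overlapped. Without DMSO replicate 1 the change of Med23 was -0.064, and without DMSO replicate 2 that of Med7 was -0.20. None of the 5 passed the test, and limma with Benjamini-Hochberg adjustment gave 0.9999 as the adjusted p of all 5.

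The CBR and DMSO pairs did not overlap for 22 of the 54 genes, 8 of them higher with CBR and 14 lower, against 33.0% of all genes tested (15.7% and 17.3%), and the difference from that background was not tested. Of the 4 polymerase I genes tested, 3 had a fitted change below 0 and Polr1a one above, with a median log2 change of -0.19, and the medians were -0.016 for 12 polymerase II genes, 0.031 for 9 polymerase III genes and -0.029 for 29 Mediator genes. The sum over the members of a complex is carried by its most abundant genes and need not follow the median. For polymerase I the sum was 95.8 and 102 under DMSO, 86.1 and 88.9 under CBR, and 93.3 and 99.7 under CBR+SAM, of which most is Polr1d. It was 2064 and 2260, 2149 and 2281, and 2217 and 2369 for polymerase II in the same order, and 159 and 163, 140 and 154, and 184 and 156 for polymerase III. For Mediator it was 6312 and 6124, 6558 and 6672, and 6470 and 6805, higher in both CBR libraries than in both DMSO libraries, while the median change of the Mediator genes was below 0.

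**Figure D4:**
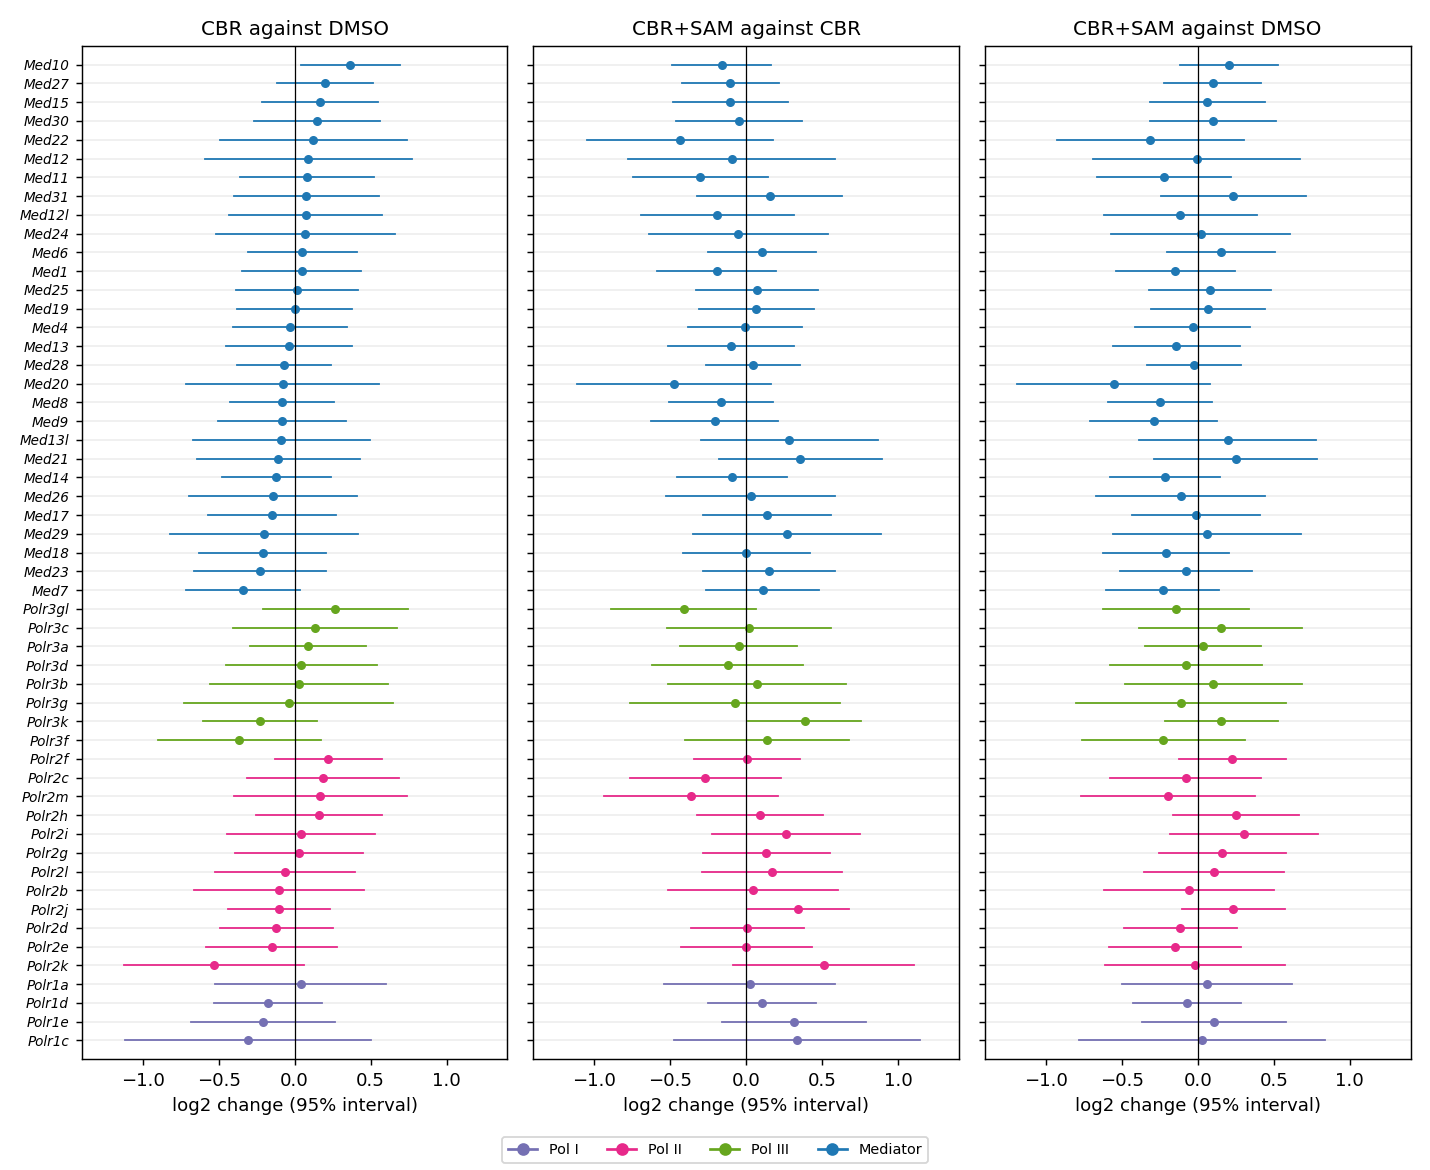
Fitted log2 change of the subunit genes tested in the 3 comparisons, as points with 95% intervals (limma on log2(value + 1), 2 libraries per group), in the order of the change from DMSO to CBR within each complex, coloured by complex. In the first panel the interval of Med10 (0.041 to 0.69) leaves out 0, in the second those of Polr3k (0.012 to 0.76) and Polr2j (0.0033 to 0.68) do, and no gene passes the adjusted threshold.

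Adding S-adenosylmethionine to the inhibitor also gave no call among the subunit genes. The comparison of CBR+SAM with CBR called 0 of the 54 by limma with Benjamini-Hochberg adjustment, against 0.00816% of all genes (1 gene, no member), and the smallest adjusted p among the 54 was 0.988. At an unadjusted p under 0.05 there were 2, Polr3k and Polr2j, both higher with CBR+SAM, against 3.09% of all genes (1.73% higher and 1.36% lower). The median log2 change was 0.020, beside 0.014 over all genes. The change was above 0 for 32 of the 54 genes, against 52.4% of all genes, and within 0.5 of 0 for 53, against 94.0%. In this comparison the pairs did not overlap for 15 of the 54 genes (6 higher and 9 lower), against 27.5% of all genes (15.0% and 12.5%). The interval lay within 1 for 50 of the 54, against 84.6% of all genes.

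The Polr3k pair moved from 65.3 and 69.0 under CBR to 97.9 and 79.0 under CBR+SAM, a log2 change of 0.39 (SE 0.16, 95% interval 0.012 to 0.76). For Polr2j, with 206 and 201 against 238 and 279, it was 0.34 (SE 0.14). Polr2k had 0.51 (SE 0.25) and Polr1e 0.32 (SE 0.20), with no overlap of the pairs in either. In the other direction Polr3gl had -0.41 (SE 0.20), from 1.98 and 2.02 to 1.36 and 1.16, without overlap. The next were Med20 with -0.47 (SE 0.27), Med22 with -0.43 (SE 0.26), Med11 with -0.30 (SE 0.19) and Polr2m with -0.36 (SE 0.24), which was -0.077 without CBR replicate 1, the library in which Polr2m stood at 5.46. Of these 4, only in Med11 did the pairs not overlap. The adjusted p of these 9 genes was 0.988 by limma.

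CBR+SAM and DMSO, which compare embryos with both additions to embryos with neither, differed by no call either. Limma called 0 of the 54 genes, against 0.00816% of all genes, and 0 of the 54 had an unadjusted p under 0.05, against 2.14% of all genes (1.01% higher and 1.13% lower). The median log2 change was -0.0077, beside -0.0048 over all genes. The change was above 0 for 26 of the 54, against 49.0% of all genes, and within 0.5 of 0 for 53, against 95.5%. The interval lay within 1 for 53, against 86.6% of all genes, and the pairs did not overlap for 14 of the 54 (5 higher and 9 lower), against 24.5% of all genes (12.4% and 12.1%). Med20 was lowest, with 24.9 and 13.6 against 27.8 and 27.2 and a log2 change of -0.55 (SE 0.27, 95% interval -1.19 to 0.083). Med8 had -0.25 (SE 0.15), Med9 -0.29 (SE 0.18), Med7 -0.23 (SE 0.16) and Med14 -0.21 (SE 0.15), all without overlap. On the higher side stood Polr2j with 0.24 (SE 0.14), Polr2f with 0.23 (SE 0.15), Med10 with 0.21 (SE 0.14) and Polr2i with 0.30 (SE 0.21). The adjusted p of each was 0.9997 by limma with Benjamini-Hochberg adjustment. The 3 comparisons share their libraries in pairs, so their values are not independent of each other.

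CBR+SAM replicate 2 stood apart from the other libraries, its own replicate included. It held the highest or the lowest of the 6 values for 33 of the 54 genes tested (61.1%), as it did for 56.7% of all genes, while each other library did so for 11 to 17. Over the 38 subunit genes whose mean reached 10, the log2 difference between replicate 2 and replicate 1 had an SD of 0.41 in CBR+SAM, 0.19 in DMSO and 0.18 in CBR, and it exceeded 0.5 in size in 10, 1 and 1 of them. Over all 5939 genes of such a mean the SD was 0.54, 0.35 and 0.34, and 1561, 347 and 369 exceeded 0.5. The value of Med20 in that library was 13.6, against 23.9 to 28.2 in the others, and that of Med22 was 44.6, against 73.4 to 84.9. Polr2c stood at 457 there, against 590 to 710, and Med21 at 827, against 464 to 575. Of the 3 cumulus markers detected, Serpine2 stood at 224.5 in that library, against 496 to 602, Cyp19a1 at 11.9, against 8.14 to 13.6, and Cyp11a1 at 1.06, against 0.72 to 1.46. Their part in what sets the library apart was not tested.

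Without CBR+SAM replicate 2, the log2 changes from CBR to CBR+SAM were -0.059 for Med20, -0.017 for Med22, -0.069 for Med11, 0.13 for Polr2k and 0.22 for Polr2j, and that of Polr3k was 0.54. Against DMSO they were then -0.14 for Med20, 0.022 for Polr2i, 0.086 for Polr2f and 0.12 for Polr2j. Without CBR+SAM replicate 1, which leaves the outlying library alone in its group and assumes that it varies like the others, 13 of the 54 genes had an unadjusted p under 0.05 against CBR and 14 against DMSO, beside 19.3% and 16.7% of all genes. Limma then called 9 and 2 genes of the table, none of them a subunit gene, and the smallest adjusted p among the genes named for the comparison with CBR was 0.0927 (Med22). The values of Med20, Med22, Med11, Polr2k, Polr2i and Polr2f in these comparisons thus rest to a large part on CBR+SAM replicate 2. Those of Polr2j do so to a smaller part. It stood at 238 in CBR+SAM replicate 1, against 201 to 222 in the DMSO and CBR libraries.

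**Figure D5:**
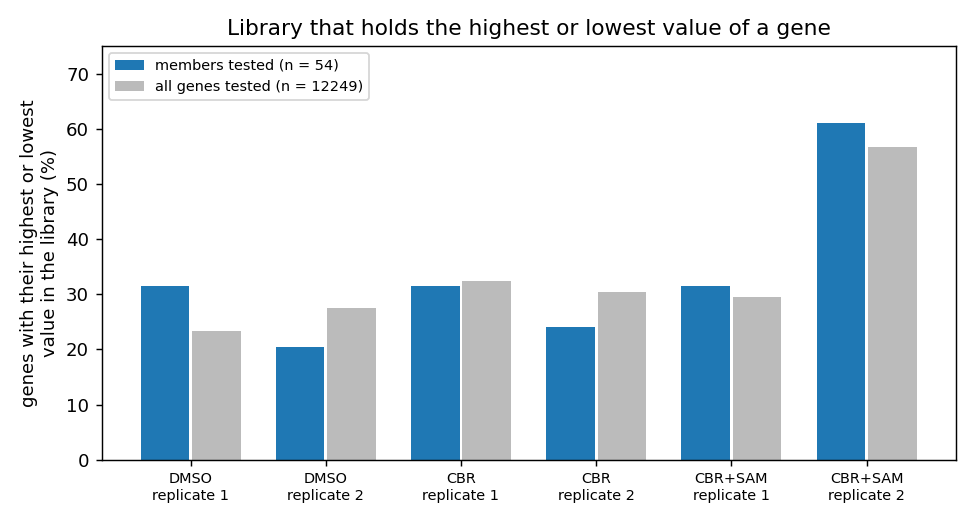
Share of genes whose highest or lowest value among the 6 libraries lies in the library named on the axis, for the 54 subunit genes tested and for the 12249 genes tested, on a linear axis from 0. CBR+SAM replicate 2 holds an extreme for 61.1% of the subunit genes and 56.7% of all genes, and no other library reaches 35%.

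The 4 genes left out by the filter were Polr2a, Polr1b, Polr3e and Med16, which did not reach a value of 1 in 2 libraries. Fitted without a filter, among 26034 genes, Polr2a had a log2 change from DMSO to CBR of 0.13 (95% interval -0.32 to 0.59), Polr1b -0.15 (-0.59 to 0.30), Polr3e -0.12 (-0.65 to 0.41) and Med16 0.014 (-0.56 to 0.58). From CBR to CBR+SAM these were -0.050, 0.22, 0.10 and 0.21 in the same order. On this scale such low genes can show only small changes, so these values set no limit on their fold. Polr1b and Med16 also hold stretches of over 150 bases that recur in genes listed far higher, Plekha5 (26.7 to 41.6) for Polr1b and Slc3a2 (67.8 to 92.0) for Med16.

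The partners of the polymerases and Mediator gave no call in any of the 3 comparisons, over 7 lists drawn up for them, by limma with Benjamini-Hochberg adjustment. At an unadjusted p under 0.05 was 1 of their genes from DMSO to CBR, Ttf1, against 2.12% of all genes, and 4 from CBR to CBR+SAM, against 3.09%. From DMSO to CBR+SAM it was Ints7 alone, against 2.14%. Ints7, also among those 4, passed the filter only through its CBR+SAM values, so nothing is read from its tests. For the counts above and below 0 that follow, 48.3% of all genes were above 0 from DMSO to CBR. From CBR to CBR+SAM it was 52.4%, and from DMSO to CBR+SAM 49.0%. The first 2 comparisons use the same CBR libraries with opposite sign, so counts that turn between them are not independent. Among the 36 polymerase II general transcription factor genes, which place the enzyme at promoters, all were tested, with 20 above and 16 below 0 from DMSO to CBR and a median log2 change of 0.048. Ccnh, the cyclin of the kinase in TFIIH, had the smallest unadjusted p, with 41.2 and 41.0 under DMSO, 33.4 and 34.1 under CBR, and a log2 change of -0.28 (SE 0.14). From CBR to CBR+SAM 10 were above and 26 below 0, with Taf8 at -0.43 (SE 0.16), and from DMSO to CBR+SAM 13 and 23, with Gtf2h1 at -0.61 (SE 0.32). Gtf2h1 stood at 22.7 in CBR+SAM replicate 2 and at 46.8 to 55.4 elsewhere.

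Of the 8 polymerase I factors tested 5 were above and 3 below 0 from DMSO to CBR, and Ttf1, which ends transcription of ribosomal genes, stood at 5.05 and 3.27 under DMSO and 5.77 and 7.58 under CBR, a log2 change of 0.59 (SE 0.24). The smallest p of that list fell to Twistnb from CBR to CBR+SAM, with -0.38 (SE 0.19), from 51.5 and 48.0 to 44.6 and 32.3. From DMSO to CBR+SAM it fell to Taf1b, with -0.24 (SE 0.17), from 32.5 and 37.5 to 32.3 and 26.8. CBR+SAM replicate 2 held the lowest value of both genes. Of 14 polymerase III factors 4 were above and 10 below 0 from DMSO to CBR, and the smallest p was that of the repressor Maf1 at -0.38 (SE 0.25). From CBR to CBR+SAM 11 were above and 3 below, with the smallest p for Snapc3 at 0.41 (SE 0.21), from 12.4 and 12.2 to 14.7 and 18.9. From DMSO to CBR+SAM 7 were above and 7 below. There the smallest p fell to Bdp1, part of the initiation factor TFIIIB, at 0.61 (SE 0.34), from 2.65 and 2.35 to 3.33 and 5.61. CBR+SAM replicate 2 held the highest value of Snapc3 and of Bdp1. The 28 pausing and elongation genes divided into 12 above and 16 below from DMSO to CBR. There Ell3, an elongation factor gene, stood at 5.02 and 4.85 under DMSO and 3.49 and 3.43 under CBR, a log2 change of -0.41 (SE 0.18), and from CBR to CBR+SAM its relative Ell2 had -0.68 (SE 0.26). Ctr9, of the Paf1 complex, had -0.46 (SE 0.23) from DMSO to CBR+SAM.

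Of the 12 genes for tail phosphatases and polymerase II assembly 6 were on either side of 0, with Rpap2, a phosphatase of the polymerase tail, at 62.7 and 66.9 under DMSO, 48.7 and 53.4 under CBR, and 55.0 and 48.3 under CBR+SAM. Its log2 change was -0.34 (SE 0.15) from DMSO to CBR and -0.32 (SE 0.15) from DMSO to CBR+SAM. Xrn2, the nuclease of termination, had -0.29 (SE 0.19) from CBR to CBR+SAM. It stood at 45.9 and 50.6 under CBR and 45.4 and 34.1 under CBR+SAM, lowest of the 6 libraries in CBR+SAM replicate 2. Integrator, which cleaves nascent RNA at paused polymerase II, had 12 genes tested with 7 above and 5 below 0 from DMSO to CBR, the smallest p being that of Ints9 at -0.21 (SE 0.17). Its Ints7 stood at 0.38 and 0.44 under DMSO, 0.53 and 0.31 under CBR, and 1.32 and 1.63 under CBR+SAM. Of the kinase partners, Cdk8 and Ccnc were tested, with -0.15 (SE 0.16) for Ccnc from DMSO to CBR and -0.23 (SE 0.16) from DMSO to CBR+SAM, and 0.085 (SE 0.16) for Cdk8 from CBR to CBR+SAM.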

How the data were processed

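RNA of wild-type 1-cell embryos was turned into cDNA by the SMART-Seq v4 kit and sequenced after Nextera XT preparation. Both are named per the labels' protocols, which describe no strand marking. The deposited signal values, 1 per gene and library, are abundances per transcript length. Tools named in the submitters' processing notes are fastp, kallisto and DESeq2, and the build is mm10, with roles and settings not given in the sources used here. The columns sum to 956209 to 1059424, whereas TPM would sum to the same total in each, so the values may have been scaled further, in a way that no source used here describes.

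Identifiers were matched to GENCODE M21 (35820 of 36065). The 12249 genes that reached a value of 1 in 2 or more libraries were fitted as log2(value + 1) with limma 3.58.1 in R 4.3.3, in 1 model of the 3 groups with a trend of variance on mean and residual degrees of freedom of 3. P-values were adjusted by Benjamini-Hochberg in each comparison (threshold 0.05). The procedure was tested on simulated data. Shared sequences were sought with blastn 2.17.0. Exons of 26 of the 58 genes overlap another gene, and without strand such reads cannot be told apart.

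The genes named were the catalytic, common and shared subunits, paralogs with the kinase partners, Med14, Med1, Med23 and Med17, the 3 most and 3 least abundant of each complex, per comparison the 5 tested members per direction with the smallest unadjusted p, and 1 gene per partner list and comparison; others are given by range. Members, lists and alternatives were chosen with earlier results of these data known. The values of 1 member are not reported here, though the counts include it.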

Additional observations from a re-analysis of the deposited data

How the results depend on the processing

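No subunit gene was called in any of the 3 comparisons under any of the 16 alternatives, which were a pseudocount of 0.1, no filter or a mean of at least 10, scaling to equal sums, median-of-ratios or quantile normalization, protein-coding genes alone, the 4 libraries of a comparison alone, a replicate block, array weights, and each library left out. The unadjusted p was under 0.05 for 0 to 5 genes between CBR and DMSO, 0 to 13 between CBR+SAM and CBR and 0 to 14 between CBR+SAM and DMSO, with 1, 2 and 0 as reported. The highest counts of the last 2 came without CBR+SAM replicate 1, where the shares of all genes rose too, as given above. Between CBR and DMSO the count was 5 with the 4 libraries alone, beside 4.43% of all genes there and 2.12% in the fit reported. The median log2 change moved by more than the spread between replicates (SD 0.032) with equal sums, to -0.074 for CBR against DMSO, -0.013 for CBR+SAM against CBR and -0.075 for CBR+SAM against DMSO. With 1 library left out it ran from -0.074 to 0.024, from -0.031 to 0.072 and from -0.016 to 0.033. The cause was not tested. The other 87 values for the comparisons kept their count of 0 calls or moved by less than that spread. The 473 for named genes kept their sign and an adjusted p above 0.05. Limma with Benjamini-Hochberg adjustment had given these genes 0.988 to 0.9999 in the fit reported, so keeping that side says little about their sizes. The log2 change of Med20 from CBR to CBR+SAM, for example, ran from -0.89 to -0.059. With the replicate block, 3, 2 and 1 subunit genes had an unadjusted p under 0.05, beside 2.91%, 4.52% and 2.78% of all genes. In each comparison 0 of them were called. The replicate differences of 5939 genes correlated at 0.60 between DMSO and CBR, 0.26 between DMSO and CBR+SAM and 0.12 between CBR and CBR+SAM, but the labels give only a number, 2 per group, so the libraries were not treated as paired. Depth is approximate, which limits statements on Polr3e (18.1 to 75.4 reads), Polr1b (29.4 to 76.7), Polr3gl (37.6 to 67.3) and Med16 (30.7 to 79.9).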
